A study of Mus musculus with 26 samples.

Results

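CD4 and CD8 double positive (DP) cells from mediastinal adipose tissue were compared with DP cells from the thymus across all genes, using 4 adipose pools and 4 thymus pools of the 12 pools in the series. Of 13765 genes in the deposited table, 9106 were tested. All mice were female C57BL/6J animals aged 8 weeks with no stated treatment or genetic change, and each pool combined the tissue of 5 mice. The remaining 4 pools came from the aortic arch and are used below for 1 direct comparison with the adipose pools. From each suspension 400 viable cells stained for CD4 and CD8b and lacking a surface T-cell receptor were sorted, and 200 cells entered a library. Each pool had 1 to 3 libraries, 8 in all for adipose tissue and 9 for thymus, which the submitters had already combined into 1 column per pool. Adipose tissue was digested with enzymes before the sort and digestion is not stated for thymus, so tissue and digestion cannot be told apart in any result below. The labels do not say whether adipose and thymus pools came from the same animals.

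DP thymocytes are the stage at which developing T cells carry both coreceptors, rearrange the alpha chain of their receptor with the RAG recombinase and wait for a selecting signal. They arise in the cortex of the thymus and are held to be rare elsewhere. Short-lived transcripts such as the Fos, Jun and Dusp genes, the cAMP response genes controlled by CREB, and the heat shock genes controlled by HSF1 are classical readouts of acute signals and of protein folding stress. In the mediastinum, adipose tissue lies next to the thymus, and no value below measures where the sorted adipose cells came from.

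Values are the authors' normalised read counts. A log2 change is the difference of mean log2(normalised read count + 20) between 4 adipose and 4 thymus pools, with its standard error (SE) from limma, and a gene was called at an adjusted p under 0.05 over all 9106 genes. The added 20 lowers the change of weakly read genes. Calls were repeated under up to 19 alternative analyses, 8 of which left out 1 pool each. Calls lost in several of them are named with the number lost.

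Adipose DP cells differed from thymic DP cells in 259 genes (2.84% of those tested). Of these, 198 (2.17%) were higher and 61 (0.67%) lower in adipose tissue. The higher genes had a median log2 change of 2.15 and the lower genes one of -1.46, against -0.01 over all tested genes. Pool values did not overlap between tissues for 254 of the 259, while 10.5% of all tested genes showed no overlap (5.48% higher and 4.99% lower in adipose tissue). edgeR on the recovered reads called 212 genes (2.33%), 170 higher (1.87%) and 42 lower (0.461%), of which 196 were shared with limma. Without adipose pool 4, limma called 169 genes, 32 of them lower. No read was found in any thymus pool for 12 of the higher genes. Such a gene could enter the tests only through adipose or arch values, so it could not come out lower. Likewise, a gene with no adipose read could not come out higher. The lists with the most calls were cAMP response, immediate early and heat shock genes among the higher genes, and genes that define the DP stage among the lower ones. In bulk RNA of sorted cells, fewer cells with a transcript and less transcript per cell cannot be told apart.

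**Figure D1:**
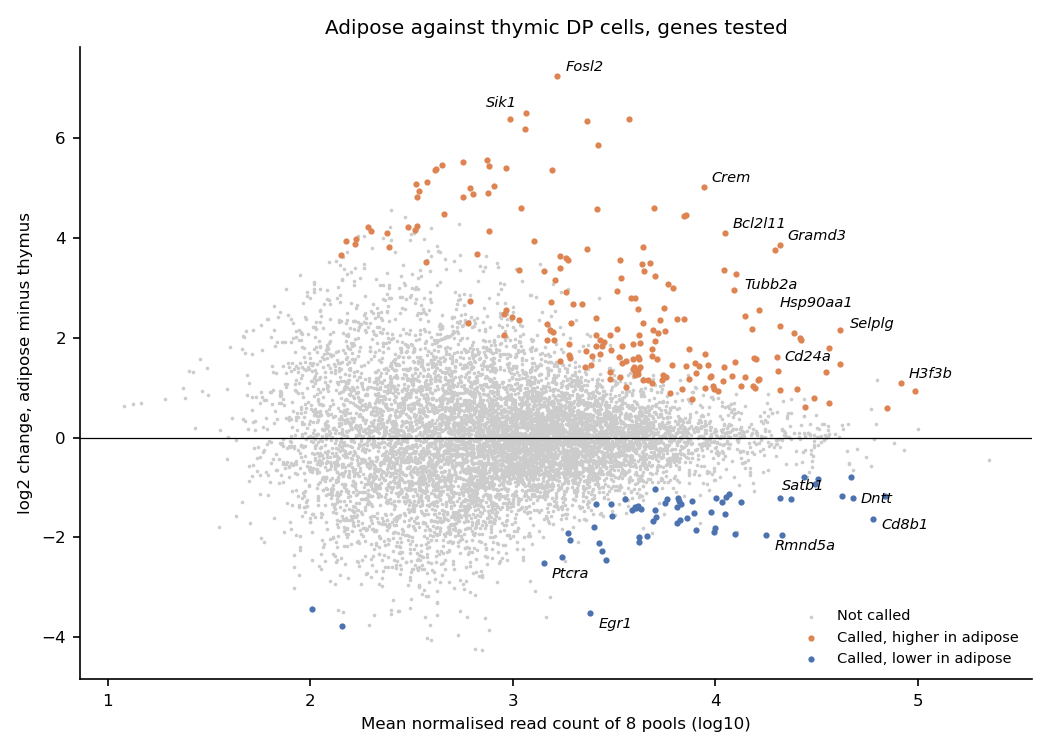
Each dot is 1 tested gene, placed by its mean normalised read count over 8 pools (log10) and its log2 change, adipose minus thymus. The 198 genes called higher (orange) reach 7.25 for Fosl2, while the 61 called lower (blue) reach -3.51 for Egr1 among genes with reads in both tissues.

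The columns held 13473516 to 34599519 recovered reads and 9091 to 11894 detected genes. Neither measure, nor the share of the top 50 genes, separated the tissues (exact two-sided permutation p of 0.4 to 0.8). Adipose pool 1 stood apart in markers of cells outside the sort gate. Its B cell markers summed to 1995 CPM (reads scaled to a common library total) against 32.9 to 183 in the other adipose pools and 73.6 to 217 in thymus. Macrophage and monocyte markers summed to 429 CPM there against 48.7 to 52.9 in the other adipose pools, and adipocyte markers to 203 CPM against 0 to 4.19. Across 16 such lists, pools of the tissues did not overlap for mature and gamma delta T cell markers alone, at 185 to 328 CPM in adipose tissue and 340 to 554 CPM in thymus. Their exact permutation p was 0.0286, the smallest that 4 against 4 pools allow (adjusted p = 0.457). Without adipose pool 1, 194 genes were called, 151 higher and 43 lower. The part of these cells in the results was not tested, and several results are also given without adipose pool 1. Among genes named below, Adipor1, Fkbp4, Gtpbp8, Hsp90ab1, Hspd1, Ier2, Nfatc3, Nr4a1, P2rx1, Ppp1r15a, Rasgrp1, Rgs1, Rora, Sh2d1a, Slc7a11, Spo11, Stambpl1, Stat5a, Stat5b, Tmprss4 and Ucp2 were not called without it (limma adjusted p of 0.0514 to 0.142).

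**Figure D2:**
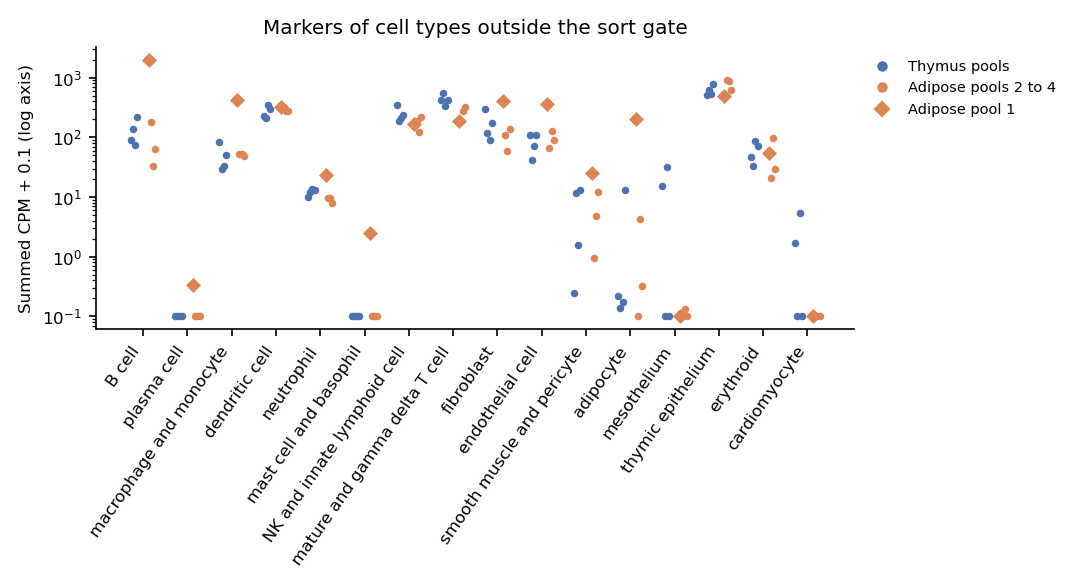
Summed CPM of marker genes of 16 cell types outside the sort gate (log axis, 0.1 added), 1 point per pool. Adipose pool 1 (diamond) lies above the other adipose pools for B cell, macrophage, mast cell, neutrophil, fibroblast, endothelial and adipocyte markers.

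The sort markers were present in every pool. Cd4 was read at 16513, 16603, 16360 and 22768 in thymus pools 1 to 4 and at 9713, 9297, 8575 and 19714 in adipose pools 1 to 4. The ranges overlapped and Cd4 was not called (log2 change -0.68 ± 0.28, limma adjusted p = 0.27). Cd8b1 encodes the beta chain that the sorting antibody recognised. It had 82329, 110228, 90858 and 75264 in thymus and 17302, 46131, 34883 and 24624 in adipose tissue, so that every adipose pool lay below every thymus pool. Cd8b1 fell by 1.62 ± 0.23 on the log2 scale (limma adjusted p = 0.000198). Its neighbour on chromosome 6, Cd8a (71373427 to 71379171, GRCm38), encodes the alpha chain. Cd8a had 81859 to 113081 in thymus and 23853 to 70736 in adipose tissue and fell by 1.18 ± 0.23 (limma adjusted p = 0.00594). In both genes adipose pool 1 was the lowest pool. Without it Cd8b1 fell by 1.38 and Cd8a by 0.92, both still called, while edgeR without adipose pool 1 did not call Cd8a (adjusted p = 0.0772).

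Cd24a, the gene of a surface glycoprotein that thymocytes carry until late maturation, went the other way. It was read at 9545, 17282, 7865 and 9517 in thymus and at 32945, 50737, 47236 and 36327 in adipose tissue. The log2 change was 1.96 ± 0.23 (limma adjusted p = 2.49e-05). Cd24a was the 1 member called higher among 35 tested genes of DP identity, of which 14 were called lower. The shares over all tested genes were 2.17% higher and 0.67% lower. The list's median log2 change was -0.88. In the 4 adipose pools taken singly the median lay between -0.92 and -0.77, and adipose pool 1 had -0.87. Without adipose pool 4, 8 of the list's genes were called lower, and without thymus pool 1, 9.

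Genes that build and diversify the receptor were among those lower in adipose DP cells. Dntt encodes terminal transferase, which adds bases at receptor gene junctions. Its counts were 67714, 68705, 64255 and 63012 in thymus and 19211, 44132, 25681 and 29416 in adipose tissue, and it fell by 1.22 ± 0.20 (limma adjusted p = 0.000886). The thymus pools were nearly equal, and the adipose pools spread more widely. Ptcra encodes the pre-T alpha chain that pairs with beta in the preceding stage. It had 1677, 2596, 2916 and 2422 in thymus and 198, 716, 309 and 554 in adipose tissue and fell by 2.51 ± 0.50 (limma adjusted p = 0.00594), which made it the DP identity gene with the largest called decrease.

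Rag1 and Rag2, adjacent genes on chromosome 2, encode the recombinase itself. Rag1 had 11630, 10867, 25997 and 17075 in thymus and 10433, 5391, 3507 and 4063 in adipose tissue. Adipose pool 1 almost reached the lowest thymus pool. Rag1 fell by 1.53 ± 0.34 (limma adjusted p = 0.0135). Its call was lost in 5 of 19 alternatives, among them the fits without adipose pool 3, adipose pool 4 or thymus pool 3 (limma adjusted p of 0.0593 to 0.0631). Rag2 had 20182, 25978, 13264 and 18615 in thymus and 1629, 8031, 8425 and 6008 in adipose tissue. These ranges did not overlap either, but Rag2 was not called (log2 change -1.90 ± 0.60, limma adjusted p = 0.117). The Rag2 log2 change passed limma's threshold when the arch pools were left out of the fit (limma adjusted p = 0.01486).

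The lower genes of this list included several that encode nuclear regulators. Satb1, a chromatin organiser of thymocytes, had 52835 to 66735 in thymus and 24247 to 28571 in adipose tissue. Satb1 fell by 1.17 ± 0.14 (limma adjusted p = 5.21e-05), with the smallest SE among the DP identity genes named here. Tcf7 encodes TCF-1, a transcription factor needed from the earliest T cell stages. It had 54323 to 68453 in thymus and 31479 to 36917 in adipose tissue and fell by 0.78 ± 0.15 (limma adjusted p = 0.0057). Bcl11b, Ikzf1 and Nfatc3 were also called lower, at log2 changes of -1.41, -1.68 and -1.33, and each lost its call in 8 to 10 alternatives.

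Outside the transcription factors, 2 further genes were lower in all adipose pools. Rmnd5a, a subunit gene of a ubiquitin ligase complex, had 24578, 23121, 36723 and 28424 in thymus and 7667, 10580, 6324 and 5241 in adipose tissue. Its fall of 1.94 ± 0.24 (limma adjusted p = 6.74e-05) stood in every alternative. Arpp21 encodes a phosphoprotein that thymocytes share with neurons. It had 14400 to 16973 in thymus and 4916 to 8602 in adipose tissue and fell by 1.30 ± 0.22 (limma adjusted p = 0.00119). Among the DP identity genes that missed the threshold, log2 changes ran from -2.69 for Gata3 to 0.95 for Patz1.

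**Figure D3:**
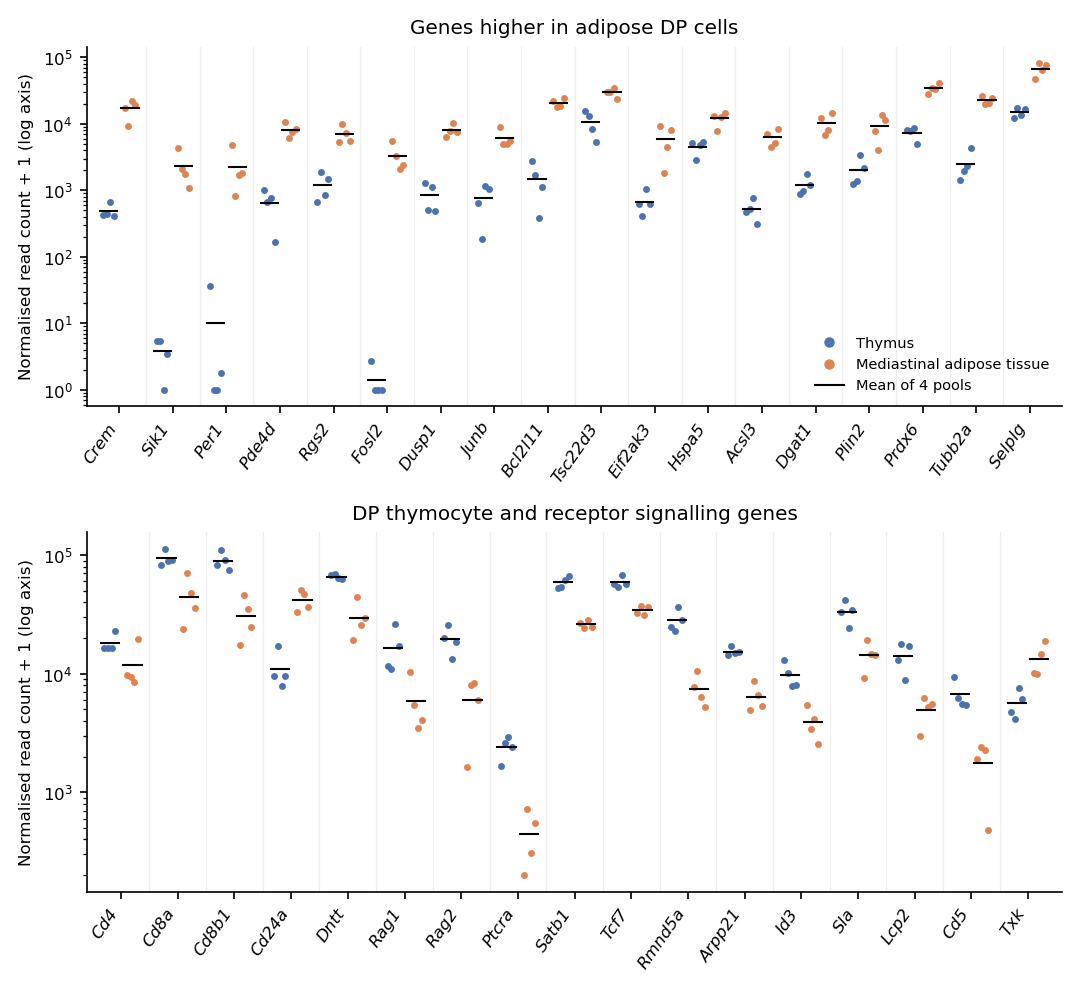
Normalised read count + 1 (log axis) of single pools, with the mean of 4 pools as a black bar, for thymus (blue) and mediastinal adipose tissue (orange). In the upper panel all adipose pools lie above all thymus pools. In the lower panel Cd24a and Txk are higher in adipose tissue, Cd4 overlaps, and the remaining genes lie lower.

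Components of T-cell receptor signalling were called in both directions, 2 higher and 5 lower of 31 tested. Of all tested genes, 2.17% were called higher and 0.67% lower. Txk, a Tec family kinase gene, was among the higher genes. Txk had 4712, 4123, 7637 and 6123 in thymus and 10044, 9961, 14702 and 18896 in adipose tissue, a log2 change of 1.23 ± 0.28 (limma adjusted p = 0.0172). The Txk call was lost in 4 alternatives, the fits without adipose pool 3 or 4 or thymus pool 1 or 2 (adjusted p of 0.0577 to 0.0941).

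Among the lower genes were those of adaptors and brakes. Lcp2, which encodes the scaffold SLP-76, had 12922, 17885, 8795 and 16995 in thymus and 2979, 6188, 5189 and 5565 in adipose tissue and fell by 1.50 ± 0.30 (limma adjusted p = 0.00615). Sla encodes an adaptor that marks the receptor complex for degradation in DP cells. It had 24105 to 41428 in thymus and 9199 to 19190 in adipose tissue and fell by 1.23 ± 0.23 (limma adjusted p = 0.00362). Cd5, a surface inhibitor whose level follows receptor signal strength, had 9433, 6293, 5507 and 5480 in thymus and 1922, 2401, 2257 and 484 in adipose tissue. Cd5 fell by 2.10 ± 0.49 (limma adjusted p = 0.0208), and this call was lost in 6 alternatives (adjusted p up to 0.156). Rasgrp1 and Sh2d1a, at -1.24 and -1.13, lost theirs in 11 and 10. Without adipose pool 4, thymus pool 1 or thymus pool 2, and by edgeR, 2 genes of the list were called lower. Without adipose pool 1 or 3 or thymus pool 4, 3 were. The CD3 chains Cd3d, Cd3e and Cd3g lay between -0.49 and -0.26 and were not called.

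Egr1, a transcription factor gene induced within minutes of receptor ligation, was the largest decrease among genes read in every pool. It had 7121, 5407, 2271 and 1990 in thymus and 1797, 529, 116 and 58.4 in adipose tissue, and the highest adipose pool lay just under the lowest thymus pool. Egr1 fell by 3.51 ± 0.81 (limma adjusted p = 0.0199). The call was lost in 6 alternatives, among them edgeR on the recovered reads (adjusted p = 0.177) and the fits without adipose pool 3 or 4 or thymus pool 1 or 2. Without adipose pool 1 the log2 change was -4.34 (limma adjusted p = 0.0029).

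Several other immediate early genes were higher. Of 31 tested, 8 were called higher, Egr1 lower and 22 not at all, with a median log2 change of 1.83. Over all tested genes, 2.17% were called higher and 0.67% lower. The sequence upstream of 3 called genes is shown, of which Tubb2a is on neither the immediate early nor the cAMP response list. They were picked for the palindrome TGACGTCA, the cAMP response element (CRE) bound by CREB family factors, or its TGACG core close to an annotated start. The stretches were taken from RefSeq promoter windows of GRCm38.p6 and run 5′ to 3′ in the direction of the gene. They cover chr17:26508523-26508622 (minus strand) for Dusp1, chr13:34078059-34078158 (minus strand) for Tubb2a and chr15:101266726-101266825 (plus strand) for Nr4a1. Capitals mark the CRE in Dusp1 and Tubb2a, and in Nr4a1 the TGACG core, which stands there on the other strand as CGTCA.
Dusp1: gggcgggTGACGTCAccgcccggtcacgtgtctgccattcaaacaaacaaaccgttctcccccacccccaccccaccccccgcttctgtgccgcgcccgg
Tubb2a: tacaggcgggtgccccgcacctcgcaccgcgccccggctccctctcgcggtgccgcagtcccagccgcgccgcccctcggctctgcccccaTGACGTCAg
Nr4a1: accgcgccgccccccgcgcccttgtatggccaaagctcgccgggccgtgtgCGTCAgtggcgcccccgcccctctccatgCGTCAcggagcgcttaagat
The CRE begins 143 bases before the annotated start of Dusp1 and 59 bases before that of Tubb2a. In Nr4a1 the cores begin 69 and 40 bases before an annotated start that lies inside the gene, which spans 101253902 to 101274795.

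CRE matches were counted on both strands of windows from 250 bases before to 50 bases after each start. Of the 198 higher genes 141 had a window, and so had 44 of the 61 lower genes. TGACGTCA occurred in 6.12% of 196 windows of the higher genes, in 1.37% of 73 windows of the lower genes, in 3.51% of 8445 windows of tested genes and in 1.79% of all 32851 windows. The higher genes with a CRE were Dusp1, Kif18a, Ppp1r15a, Prkar1a, Rce1, S1pr2, Tinf2, Trp53inp2, Tubb2a, Ube2b and Zfand2a. Of the 6 called cAMP response genes with a window, Prkar1a alone held a CRE. Of the 6 immediate early genes called higher and with a window, Dusp1 alone did. The shorter TGACG, which lies within every CRE and was searched for after the first results, occurred in 45.9%, 26%, 34.1% and 20.8% of the same windows. The AP-1 site TGACTCA stood in 4.08% of windows of higher genes, 5.48% of those of lower genes, 3.06% of those of tested genes and 5.2% of all windows. These are matches of letters and do not show binding. Crem is not shown, and Sik1 and Gem had no window.

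Crem had the smallest p-value of all genes. It encodes a CREB family factor and the inducible repressor ICER, which closes the cAMP response it is induced by. Crem had 423, 446, 663 and 412 in thymus and 17213, 9139, 22415 and 19562 in adipose tissue, so the lowest adipose pool was far above the highest thymus pool. The log2 change was 5.03 ± 0.31 (limma adjusted p = 2.15e-08). Sik1, which encodes a kinase that restrains the CREB coactivators, had 4.53, 4.49, 0 and 2.47 in thymus and 4405, 2078, 1755 and 1089 in adipose tissue. The Sik1 log2 change was 6.50 ± 0.66 (limma adjusted p = 5.1e-06). Both calls stood in every alternative.

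Of 19 tested cAMP response genes, 9 were called higher and none lower, where 2.17% and 0.67% of all tested genes were. The list's median log2 change was 2.17. The phosphodiesterases Pde4d and Pde4b, which degrade cAMP, were higher. Pde4d had 1008, 675, 775 and 168 in thymus and 10496, 6117, 7612 and 8402 in adipose tissue, a log2 change of 3.81 ± 0.45 (limma adjusted p = 3.65e-05). Pde4b rose less, from 1491 to 2853 in thymus to 4759 to 7479 in adipose tissue, by 1.41 ± 0.27 (limma adjusted p = 0.0049). Prkar1a encodes the regulatory subunit that holds protein kinase A inactive, and it rose by 1.34 ± 0.23 (limma adjusted p = 0.00133). The clock gene Per1, a known CREB and glucocorticoid target, had 35.1, 0, 0 and 0.825 in thymus and 4768, 835, 1702 and 1826 in adipose tissue, a log2 change of 6.19 ± 0.74 (limma adjusted p = 3.86e-05). Rgs2, which encodes an inhibitor of G protein signalling, rose by 2.58 ± 0.39 (limma adjusted p = 0.000515). Gem, a small GTPase gene, had no thymus read and 342 to 1525 in adipose tissue. Its adipose mean was 249-fold that of 3 reads per thymus pool, a bound for read counting only. The kinase genes Prkaca, Prkacb and the factor gene Creb1 lay at -0.11, -0.12 and -0.92 and were not called. By pool, the list's median was 2.93 in adipose pool 1 and 1.27 to 2.26 in the others, and 8 of the 9 calls remained without adipose pool 1.

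Fosl2, an AP-1 subunit gene, had the largest log2 change among called genes. Its thymus reads were 3, all in thymus pool 1 (a normalised count of 1.70), against 5495, 3301, 2117 and 2367 in adipose tissue. The ratio of means was 7820, with an exact 95% Poisson interval of 2676 to 37922 for counting error, and the limma adjusted p was 7.33e-07. Junb, a further AP-1 subunit gene, had 652, 187, 1154 and 1058 in thymus and 8891, 4926, 4983 and 5482 in adipose tissue, a log2 change of 3.19 ± 0.43 (limma adjusted p = 0.000153). Fos itself had 547, 223, 0 and 265 in thymus and 2653, 790, 1796 and 744 in adipose tissue. Its pools did not overlap, but Fos was not called (log2 change 2.98 ± 0.85, limma adjusted p = 0.0726).

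The phosphatase genes Dusp1 and Dusp5, whose products switch off MAP kinases, were higher together. Dusp1 had 1289, 510, 1106 and 487 in thymus and 6460, 7942, 10200 and 7665 in adipose tissue, a log2 change of 3.33 ± 0.34 (limma adjusted p = 5.1e-06). Dusp5 had 147 to 384 in thymus and 2290 to 3945 in adipose tissue, a log2 change of 3.40 ± 0.58 (limma adjusted p = 0.00152). In contrast, Dusp2 and Dusp6 lay at -1.06 and -1.46 and were not called. The factor genes Klf6 and Ier2 rose by 1.83 and 1.45.

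Nr4a1, which encodes the orphan receptor Nur77, had 4498, 1996, 1.46 and 395 in thymus and 20685, 9521, 11515 and 8571 in adipose tissue. One thymus pool had almost no reads and another reached 4498, so the thymus level was poorly defined. The log2 change was 4.47 ± 1.02 (limma adjusted p = 0.0186), and the call was lost in 8 alternatives, among them edgeR (adjusted p = 0.243) and the fits without adipose pool 1 or 3 or thymus pool 4. Rgs1 had no thymus read and 221 to 633 in adipose tissue, a mean 143-fold that of 3 reads per thymus pool. It lost its call in each of the 8 fits without 1 pool (adjusted p of 0.085 to 0.125). The median over immediate early genes was 2.46 in adipose pool 1 and 0.36 to 0.82 in the other adipose pools. Without adipose pool 1, 5 of these genes were called higher.

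**Figure D4:**
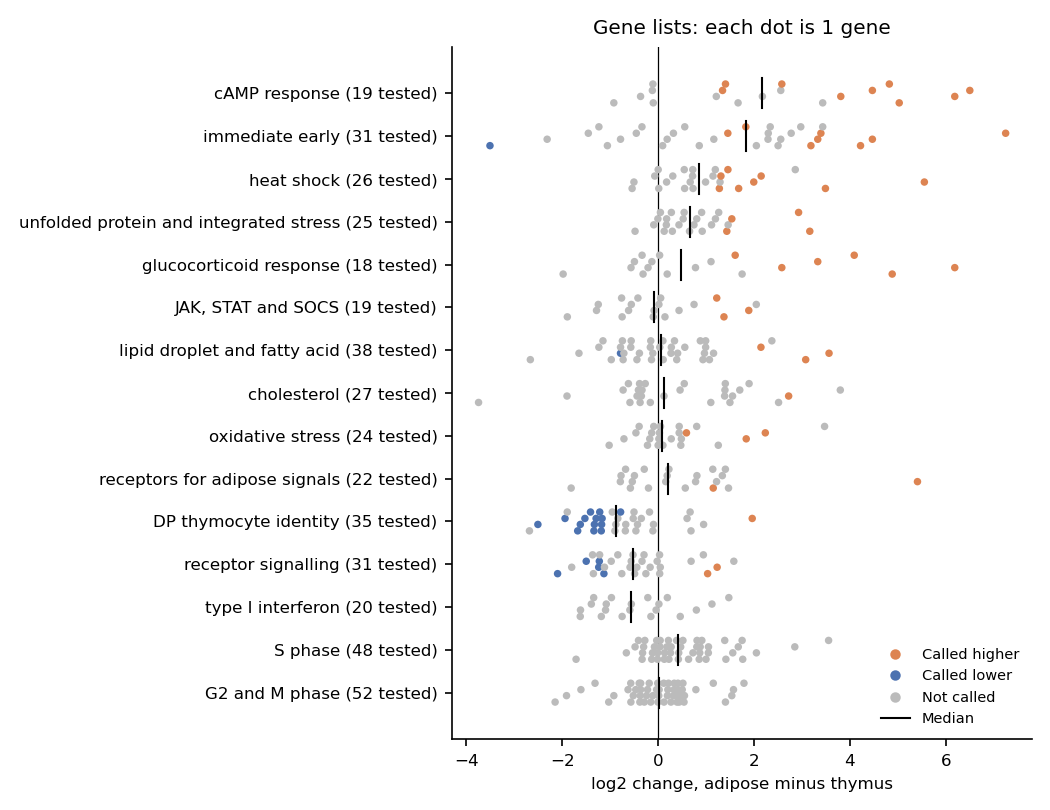
Log2 change, adipose minus thymus, of every tested member of 15 gene lists, with the list's median as a black bar. Called members are orange (higher) or blue (lower). The cAMP response list has the highest median, 2.17, and the DP identity list the lowest, -0.88.

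Heat shock genes form another group with several calls. Of 26 tested, 8 were called higher and none lower, where 2.17% and 0.67% of all tested genes were. The list's median log2 change was 0.86, and 23 of the 26 were above 0. HSF1 binds repeats of GAA and its reverse, and the upstream sequence of 3 called genes is shown because such a heat shock element lies near the start. The RefSeq stretches cover chr17:34972207-34972306 (minus strand) for Hspa1a, chr1:55088053-55088082 (plus strand) for Hspe1 and chr5:29735838-29735867 (plus strand) for Dnajb6. Capitals mark GAANNTTC, or an extended form that adds another GAA, on either strand, where overlapping matches merge.
Hspa1a: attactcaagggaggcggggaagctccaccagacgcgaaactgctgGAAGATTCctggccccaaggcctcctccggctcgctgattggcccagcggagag
Hspe1: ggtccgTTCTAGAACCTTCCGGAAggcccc
Dnajb6: gtcctcagctccgaGAATCTTCCGGAAcgc
All 6 called heat shock genes with a window held GAANNTTC (Dnajb6, Fkbp4, Hspa1a, Hspd1, Hspe1 and Hsph1), in 88.9% of their 9 windows against 7.86% of all windows. The extended form stood in 66.7% of the 9 windows and in 0.603% of all windows. The list is made of genes known as heat shock genes, so the matches only describe it. Hsp90aa1 had no window.

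Hspa1a, the classical inducible HSP70 gene, had no read in any thymus pool and 2680, 1724, 1441 and 93.6 in adipose tissue. Its adipose mean was 551-fold that of 3 reads per thymus pool. Hspa1a was called (limma adjusted p = 0.000958), although adipose pool 4 lay far below the other adipose pools. Hsph1, a gene of the HSP110 family that recharges HSP70, had 1522, 272, 990 and 519 in thymus and 11190, 5446, 13233 and 4803 in adipose tissue, a log2 change of 3.49 ± 0.42 (limma adjusted p = 3.86e-05). Hsp90aa1, the inducible cytosolic HSP90 gene, had 9379, 10355, 12085 and 6658 in thymus and 54451, 23030, 70353 and 22512 in adipose tissue. Its log2 change was 2.00 ± 0.30 (limma adjusted p = 0.000471). In Hsph1 and Hsp90aa1, adipose pools 1 and 3 lay above adipose pools 2 and 4, yet all exceeded the thymus pools.

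The mitochondrial chaperonin is built from the products of Hspd1 and Hspe1, a gene pair on chromosome 1 transcribed in opposite directions from a common stretch. Hspe1 (55088148 to 55091317) had 2339, 1126, 1342 and 1703 in thymus and 9101, 3899, 15760 and 4336 in adipose tissue, a log2 change of 2.15 ± 0.40 (limma adjusted p = 0.00311). Hspd1 (55077833 to 55088243) had 4691, 2536, 4390 and 1477 in thymus and 7850, 6763, 15622 and 5370 in adipose tissue, a log2 change of 1.46 ± 0.35 (limma adjusted p = 0.0269). Adipose pool 3 was the highest pool for both. The authors' counting is not stated to use strand, so reads where the genes overlap cannot be assigned to 1 of them.

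Dnajb6, a J-domain chaperone gene, rose by 1.68 ± 0.27 (limma adjusted p = 0.000927), and Fkbp4, a steroid receptor cochaperone gene, by 1.28 ± 0.28 (limma adjusted p = 0.0135). Hsp90ab1 rose by 1.31 ± 0.31 (limma adjusted p = 0.0243), with 11277 to 28789 in thymus and 23293 to 84002 in adipose tissue, ranges that overlapped. Hspa8, the constitutive HSP70 gene, had 80357, 38339, 26104 and 21172 in thymus and 98055, 49004, 123740 and 68531 in adipose tissue and was not called (log2 change 1.14 ± 0.32, limma adjusted p = 0.0691). Hsp90ab1 and Hspd1 each lost their call in 7 alternatives and Fkbp4 in 2. Without adipose pool 1, 5 heat shock genes were called and Fkbp4, Hsp90ab1 and Hspd1 were not (adjusted p of 0.0523 to 0.0996). Of the 8 tested subunits of the TRiC chaperonin, limma and edgeR called 0 and DESeq2 called 1. An unadjusted limma p under 0.05 was found for 2 of them, and for 1167 of all 9106 tested genes.

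Chaperones and sensors of the endoplasmic reticulum gave 4 calls among 25 tested genes of the responses to unfolded protein and to blocked translation. All 4 were higher, and the list's median was 0.65. Over all tested genes, 2.17% were called higher. Eif2ak3 encodes PERK, the sensor kinase that slows translation. It had 613, 412, 1037 and 617 in thymus and 9311, 1826, 4487 and 7993 in adipose tissue, a log2 change of 2.93 ± 0.47 (limma adjusted p = 0.000927). Hspa5 encodes BiP, the HSP70 of this compartment, and had 5109, 2824, 4789 and 5261 in thymus and 13140, 7909, 12696 and 14804 in adipose tissue, a log2 change of 1.43 ± 0.28 (limma adjusted p = 0.00597). Dnajb9 and Ppp1r15a, the gene of the phosphatase subunit GADD34, were higher by 1.54 and 3.16. These 2 calls were lost in 6 and 11 alternatives (adjusted p up to 0.509 for Ppp1r15a), and the fits without adipose pool 3 or 4 or thymus pool 2 kept 2 of the 4 calls.

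Glucocorticoids are known to kill DP thymocytes and to induce a small set of genes in them. Of 18 tested genes of that response, 6 were called higher and none lower, where 2.17% and 0.67% of all tested genes were. The median was 0.48, with 1.20 in adipose pool 1 and 0.04 to 0.30 in the others. Bcl2l11 encodes BIM, a death protein of the BCL2 family. It had 2756, 1681, 377 and 1141 in thymus and 22144, 18233, 18609 and 24376 in adipose tissue, a log2 change of 4.09 ± 0.40 (limma adjusted p = 4.09e-06). Tsc22d3, the gene of the glucocorticoid-induced leucine zipper, had 15392, 13006, 8321 and 5283 in thymus and 30188, 30474, 34890 and 23775 in adipose tissue, a log2 change of 1.61 ± 0.26 (limma adjusted p = 0.000886). Cebpb had 1.13, 5.98, 239 and 0 in thymus and 937 to 1589 in adipose tissue. Its log2 change was 4.88 ± 0.93 (limma adjusted p = 0.00402), while edgeR did not call it (adjusted p = 0.181) and 3 alternatives in all lost the call. The other 3 were Per1, Rgs2 and Dusp1, described above with the cAMP and immediate early genes, so these lists are not separate evidence. Among 23 tested genes of the BCL2 family and caspases, Bcl2l11 alone was called, where 2.84% of all tested genes were.

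Of 38 tested genes of lipid droplets and fatty acids, 3 were called higher and 1 lower, where 2.17% and 0.67% of all tested genes were. The list's median was 0.07, with 0.44 in adipose pool 1 and 0.03 to 0.06 in the others. Dgat1 encodes an enzyme of triglyceride synthesis and had 890, 978, 1760 and 1208 in thymus and 12188, 6765, 8201 and 14807 in adipose tissue, a log2 change of 3.08 ± 0.37 (limma adjusted p = 4.17e-05). Acsl3, which activates fatty acids on droplets, had 472, 528, 779 and 309 in thymus and 7010, 4467, 5205 and 8418 in adipose tissue, a log2 change of 3.57 ± 0.39 (limma adjusted p = 1.52e-05). Plin2, the gene of a droplet coat protein, had 1263, 1383, 3379 and 2174 in thymus and 7811, 4116, 13711 and 11529 in adipose tissue, a log2 change of 2.14 ± 0.40 (limma adjusted p = 0.00319). The log2 changes of Dgat1, Acsl3 and Plin2 were 2.98, 3.50 and 2.18 without adipose pool 1, which held the adipocyte markers, and all 3 were called. Of these, only Dgat1 was called between arch and adipose tissue, as given below. Arch minus adipose differences were -1.20 ± 0.39 for Acsl3 and 0.07 ± 0.40 for Plin2 (limma adjusted p = 0.341 and 0.967). Ucp2, a mitochondrial carrier gene, fell by 0.79 ± 0.21 (limma adjusted p = 0.0456), a call lost in 13 alternatives.

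Sterol genes showed 1 call among 27 tested, Insig1, the gene of the sterol sensor that retains SREBP in the endoplasmic reticulum. Over all tested genes, 2.17% were called higher, the share to set beside the list counts of this paragraph. Insig1 rose by 2.72 ± 0.54 (limma adjusted p = 0.00597). Among 22 tested receptors for signals that adipose tissue sends, Tnfrsf1b (TNF receptor 2) and Adipor1 (adiponectin receptor 1) were called higher, at 5.41 ± 0.83 and 1.15 ± 0.29. Tnfrsf1b had 1.13, 10.5, 0 and 188 in thymus and 951 to 2635 in adipose tissue, and edgeR did not call it (adjusted p = 0.066). Adipor1 lost its call in 10 alternatives. Tnfrsf1b and Adipor1 were not called between arch and adipose tissue, at arch minus adipose differences of 0.12 and -0.64. In the JAK and STAT list, Stat3, Stat5a and Stat5b were higher of 19 tested, at 1.89 ± 0.37, 1.37 ± 0.32 and 1.22 ± 0.30. Stat3, a transducer of IL-6 family signals, had 1018 to 2839 in thymus and 4367 to 8941 in adipose tissue (limma adjusted p = 0.00517), and of these genes it was the 1 called without adipose pool 1. Stat5a and Stat5b lost their calls in 6 alternatives each.

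Antioxidant genes added Prdx6, Ftl1 and Slc7a11 among 24 tested, where 2.17% of all tested genes were called higher. Prdx6 encodes a peroxiredoxin that reduces oxidised phospholipids. It had 8185, 7927, 8645 and 4927 in thymus and 28234, 35135, 33823 and 40941 in adipose tissue, a log2 change of 2.24 ± 0.19 (limma adjusted p = 8.24e-07). Ftl1, the ferritin light chain gene, rose by 0.59 ± 0.14, and Slc7a11, the cystine transporter gene, by 1.84 ± 0.44. Ftl1 and Slc7a11 lost their calls in 5 and 7 alternatives, and without adipose pool 2 or thymus pool 3 Prdx6 was the 1 call of the list. The polyamine enzyme gene Odc1 had 753, 743, 712 and 1744 in thymus and 11376, 5948, 10906 and 8320 in adipose tissue, a log2 change of 3.25 ± 0.32 (limma adjusted p = 4.09e-06). The growth arrest gene Cdkn1a had 125 as its highest thymus count and 627 to 2237 in adipose tissue, and edgeR did not call it (adjusted p = 0.154).

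After Crem, the smallest p-values belonged to 4 genes outside the lists described so far. Gramd3, which encodes a GRAM domain protein, had 3427, 3515, 1829 and 2074 in thymus and 27712, 45180, 41751 and 41038 in adipose tissue, a log2 change of 3.87 ± 0.28 (limma adjusted p = 1.42e-07). Morf4l2, a gene of the MRG family of chromatin proteins, had 4977, 3025, 2179 and 1488 in thymus and 37026, 26922, 37360 and 45172 in adipose tissue, a log2 change of 3.76 ± 0.28 (limma adjusted p = 1.51e-07). Rnf125, a ubiquitin ligase gene, had 245, 258, 488 and 594 in thymus and 8297, 9173, 8356 and 12286 in adipose tissue, a log2 change of 4.60 ± 0.35 (limma adjusted p = 2.39e-07). Tubb2a, a beta tubulin gene whose CRE is printed above, had 1438, 1940, 2344 and 4375 in thymus and 26214, 20187, 20758 and 24474 in adipose tissue, a log2 change of 3.29 ± 0.27 (limma adjusted p = 4.96e-07). Without adipose pool 1 the 4 log2 changes were 4.02, 3.74, 4.66 and 3.22, and all 4 calls stood in every alternative.

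Genes with the largest increases had few reads in thymic DP cells. Snx18, a sorting nexin gene, had 0.566, 266, 17.5 and 212 in thymus and 11322, 7141, 6162 and 5045 in adipose tissue, a log2 change of 6.39 ± 0.65 (limma adjusted p = 5.45e-06). Sgip1, an endocytic adaptor gene, had 1 thymus read, in pool 3, and 681, 1522, 3086 and 2439 in adipose tissue. Its ratio of means was 5306, with an exact 95% Poisson interval of 952 to 209558 for counting error. Map3k5, the gene of the stress kinase ASK1, had no thymus read and 524, 1065, 811 and 1193 in adipose tissue. Its adipose mean was 333-fold that of 3 reads per thymus pool. Tex2, Spsb1 and Grn, the progranulin gene, had log2 changes of 6.35, 5.86 and 5.52, of which edgeR did not call Spsb1 (adjusted p = 0.0854).

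The largest decreases included 2 genes known from the germline, besides Ptcra, Cd5 and Egr1. Spo11, the gene of the enzyme that opens meiotic recombination, had 2694, 6799, 4665 and 4934 in thymus and 442, 2165, 707 and 636 in adipose tissue and fell by 2.45 ± 0.55 (limma adjusted p = 0.0158). The Spo11 call was lost in 6 alternatives. Tdrd5, a tudor domain gene of male germ cells, had 3323, 5177, 3853 and 5953 in thymus and 891, 533, 1139 and 1217 in adipose tissue and fell by 2.28 ± 0.45 (limma adjusted p = 0.00597). Gtpbp8 and Tmprss4 had no adipose read against 106 to 456 and 121 to 262 in thymus. Their thymus means were 110-fold and 78.7-fold that of 3 reads per adipose pool. The limma 95% intervals of their log2 changes ended at -1.94 and -1.76. Both calls were lost in 7 or more alternatives, edgeR among them. The remaining large decreases were Stambpl1, P2rx1 and Sytl3, at -2.39, -2.11 and -2.05, and they lost their calls in 12, 14 and 3 alternatives.

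Selplg was among the called genes with the highest counts, which also depend on transcript length. It encodes PSGL-1, the selectin ligand with which blood-borne T cell progenitors settle the thymus. Selplg had 12395, 17450, 13582 and 16676 in thymus and 47709, 81426, 65282 and 75747 in adipose tissue, a log2 change of 2.15 ± 0.22 (limma adjusted p = 5.1e-06). H3f3b, a gene of the replication-independent histone H3.3, had 43912 to 58450 in thymus and 99292 to 122335 in adipose tissue and rose by 1.10 ± 0.13 (limma adjusted p = 3.65e-05). Cnbp, Sidt2 and Actg1 rose by 1.48, 1.80 and 0.93, and Ldhb fell by 0.83. The Actg1 call was lost in 5 alternatives and that of Ldhb in 1.

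The direct comparison of aortic arch with mediastinal adipose DP cells used no thymus pool but the same 4 adipose pools as the comparison with thymus. It is thus not independent of that comparison, and it called 16 genes (0.176% of 9106). Arch was higher for 9 of them (0.0988%) and lower for 7 (0.0769%). Heat shock genes made up 8 of the 9 by limma. edgeR on the recovered reads called 8 genes in all, and of the heat shock genes it called Hsp90aa1, Hspe1 and Dnajb1, but not Hspd1, Hsph1, Hspa8, Hsp90ab1 or Dnaja1 (edgeR adjusted p of 0.0730 to 0.258). Hsp90aa1 had 165229, 249295, 204351 and 206119 in arch pools 1 to 4, all above the highest adipose pool at 70353, and arch exceeded adipose tissue by 2.44 ± 0.30 (limma adjusted p = 0.000813). Hspe1 had 35800, 100009, 58835 and 86798 in arch and was higher there by 3.22 ± 0.40 (limma adjusted p = 0.000813). Hspd1, Hsph1, Hsp90ab1, Hspa8, Dnaja1 and Dnajb1 were higher in arch by 1.32 to 2.31. Adipose DP cells lay between thymus and arch for Hsp90aa1, Hsp90ab1, Hsph1, Hspe1 and Hspd1, with limma's tests of both steps past the threshold. By edgeR the step from adipose tissue to arch passed for Hsp90aa1 and Hspe1 and not for Hsp90ab1, Hsph1 or Hspd1. For Hspa8, Dnaja1 and Dnajb1 the step from thymus to adipose tissue was not called.

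The ninth gene was Id3, an inhibitor of E protein factors. It had 12970, 10058, 7813 and 8076 in thymus, 5466, 3416, 4139 and 2553 in adipose tissue, and 8194, 18497, 13341 and 17552 in arch. Id3 was thus lower in adipose tissue than in thymus (by 1.34 ± 0.29, limma adjusted p = 0.0121, lost in 2 alternatives) and higher in arch than in adipose tissue (by 1.87 ± 0.29, limma adjusted p = 0.0128). Of the 61 genes lower in adipose tissue than in thymus, Id3 was the 1 that differed between arch and adipose tissue.

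Of the 198 genes higher in adipose tissue than in thymus, 5 were higher still in arch and 5 were lower in arch than in adipose tissue. The latter were Dgat1, Txk, Selplg, Neil1 and the pseudogene Bambi-ps1, whose call against thymus was lost in 9 alternatives. Dgat1 had 2358, 1282, 3839 and 2225 in arch against 6765 to 14807 in adipose tissue, a difference of -2.14 ± 0.37 (limma adjusted p = 0.0236). Txk had 3137 to 5875 in arch, a difference of -1.57 ± 0.28 (limma adjusted p = 0.0260). Selplg had 21789 to 40470 in arch, a difference of -1.17 ± 0.22 (limma adjusted p = 0.0277). edgeR called Dgat1 and Txk here, but not Selplg, Neil1 or Bambi-ps1 (edgeR adjusted p of 0.0983 to 0.143). Neil1, a DNA glycosylase gene, had 462 to 1553 in thymus, 5173 to 9459 in adipose tissue and 812 to 2291 in arch. Gpr180 and Ndrg3 were lower in arch than in adipose tissue without a call between adipose tissue and thymus. Crem, Sik1, Fosl2, Dusp1 and Bcl2l11 were not called between arch and adipose tissue, where their differences ran from -0.22 to 0.89.

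**Figure D5:**
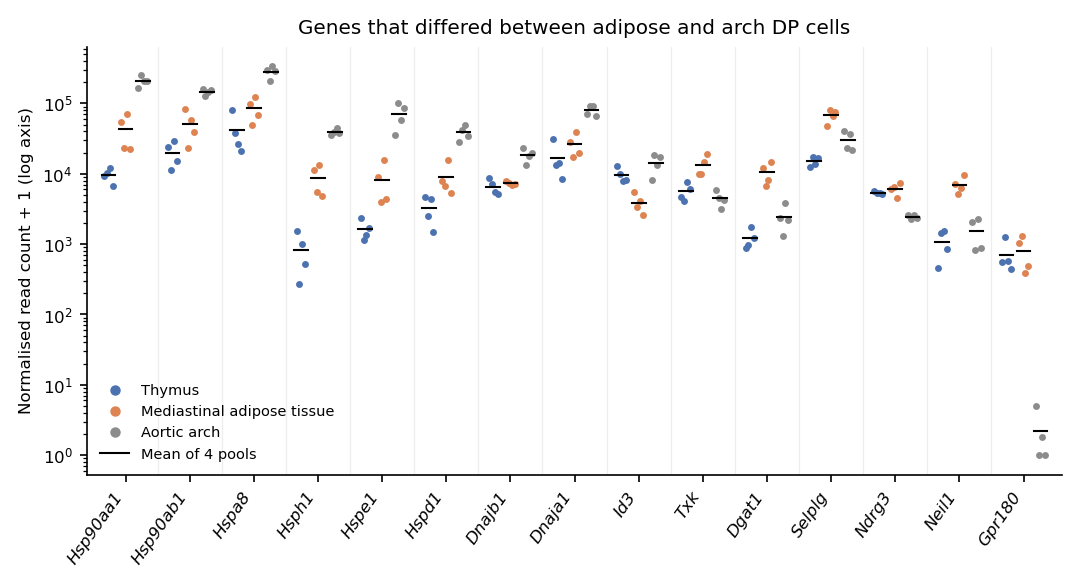
Normalised read count + 1 (log axis) in each pool of thymus, mediastinal adipose tissue and aortic arch for 15 genes called between arch and adipose tissue, with the mean of 4 pools as a black bar. The 8 chaperone genes are highest in arch, Id3 is lowest in adipose tissue, and Txk, Dgat1, Selplg and Neil1 are highest in adipose tissue.

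Arch pools carried transcripts of cells outside the gate unevenly too, with fibroblast markers at 6616 CPM in pool 4 and smooth muscle markers at 1622 CPM in pool 2, against 59.2 to 407 and 0.840 to 25.1 CPM in adipose tissue. Their part in the differences between arch and adipose tissue was not tested.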

How the data were processed

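RNA of sorted CD4+CD8b+TCR- cells was amplified with 18 PCR cycles and sequenced as 50-base single-end reads, per the labels' protocols. The submitters' processing notes list FastQC 0.11.5, STAR 2.6.0c and, as genome build, GRCm38. Which counter and annotation were used is not given in the sources used here. Per gene and pool, the deposited table holds a normalised signal, made by the authors from read counts with libraries of a pool combined. All 120369 values above 0 were whole multiples (within 0.01) of 1 step per column, so read counts were recovered by division. Intervals from these reads, and folds against 3 reads per pool, cover counting error only, since PCR reads are not independent molecules.

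Genes with a value of at least 100 in at least 4 of the 12 columns were tested with limma 3.58.1 (R 4.3.3), with trend, on log2(value + 20), tissue as the only term, all 3 tissues in 1 fit and Benjamini-Hochberg adjustment. The tested genes held 98.6% to 99.6% of each column's total. CPM was computed from the recovered reads. edgeR 4.0.16 (quasi-likelihood, TMM) and DESeq2 1.42.0 on the recovered reads were alternatives, as were other pseudocounts, filters, scalings, weights and pools left out. The code was tested on simulated data.

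The deposited pools carry numbers in both tissues. Deviations from the group means correlated weakly between adipose and thymus pools of the same number (r of -0.03 to 0.08 across genes). The numbers were not used as pairs.

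Genes named per direction were the 10 called genes with the largest change and at least 10 CPM, the 6 with the highest values, both with pools that do not overlap, then the 5 with the smallest p, up to 4 per gene list and a set of stage, chaperone and signalling genes. Other genes were chosen after their values were seen. The comparison, gene lists and rules were chosen with earlier results of these data known. Receptor constant genes and mitochondrial transcripts are not analysed here. The p-values measure the spread between pools of mice. Some genes are not reported here.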

Additional observations from a re-analysis of the deposited data

Results flagged for a closer look

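In 26 of 262 groups of 4 pools, 1 pool lay far from the other 3. For normally distributed values about 1 group in 20 would be flagged. Counts near 0 are not of that kind, and a group with reads in 1 pool alone, such as Fosl2 or Sgip1 in thymus, is always flagged. The count of 26 therefore does not show how unusual the pools were. Among the marker sums, adipose pool 1 was the high pool for B cell (1995 CPM), macrophage and monocyte (429 CPM), adipocyte (203 CPM), neutrophil (23.5 CPM), mast cell and basophil (2.42 CPM) and plasma cell markers (0.239 CPM). Adipose pool 3 was the high pool for mesothelium markers, at 0.0335 CPM, and thymus pool 4 for adipocyte markers, at 13.1 CPM.

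Among genes, the pool apart in adipose tissue was pool 1 for Gem (1525), Junb (8891) and the helicase gene Ddx39b (4066, a lower call lost in 6 of 19 alternatives), pool 2 for Spo11 (2165), and pool 4 for Prkar1a (43900) and Cd4 (19714). In thymus it was pool 1 for Per1 (35.1), Fosl2 (1.70) and Grn (6.23), and pool 2 for Ctla4 (109) and Gpr180 (1273). It was thymus pool 3 for Crem (663), Cebpb (239) and Sgip1 (1.46), and thymus pool 4 for Cd4 (22768), Tnfrsf1b (188), Cdkn1a (125) and Odc1 (1744). Pool 4 was the high pool for Cd4 in both tissues. The values of Crem, Fosl2, Gem, Junb, Odc1 and Per1 still did not overlap between tissues.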

How the results depend on the processing

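The count of 259 called genes (198 higher, 61 lower) became 539 (398 higher, 141 lower) with DESeq2 and 573 (395 higher, 178 lower) with limma's array weights. With adipose and thymus columns only it was 302, of which 96 were lower. edgeR without adipose pool 1, chosen after seeing the data, called 31 genes lower. Between arch and adipose tissue, edgeR called 8 genes against 16. Leaving out 1 pool at a time gave 169 to 250 called genes, 137 to 183 higher and 32 to 67 lower, and 146 genes were called in all 8 of these fits. The fit with the pool number as a replicate block called 243 genes, 229 of them among the 259. Adipose pools 1, 2 and 4 correlated best with the thymus pool of their own number (r of 0.076, 0.059 and 0.054). Adipose pool 3 did not (r of -0.031 with thymus pool 3). The Gpr180 log2 change, not called between adipose tissue and thymus, changed sign, from 0.12 to -0.106 with array weights and from -0.154 to 0.440 without 1 pool. The cause was not tested. Over the named genes, 1117 of 1228 values kept direction and side of the threshold under other settings, and 714 of 896 without 1 pool. The share of calls that were higher was 76.4% and ranged from 68.2% to 84.4%. Depth limits genes near the added 20, which stands for 13.7 to 35.3 reads.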

Other observations

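Some groups of housekeeping and regulatory genes held single calls, where 2.17% of all tested genes were called higher and 0.67% lower. Of 10 tested tubulin genes, Tubb2a and Tubb2b were higher in adipose DP cells, the latter by 2.41 ± 0.55 (limma adjusted p = 0.0194, lost in 3 alternatives). Of 54 tested genes of translation initiation, 4 were higher, and the pattern that built the list also took in Eif2c2, an Argonaute gene. Eif1, which sets start codon choice, had 26342 to 30023 in thymus and 41612 to 50164 in adipose tissue and rose by 0.69 ± 0.13 (limma adjusted p = 0.00363). Eif4a1, the initiation helicase gene, rose by 0.61 ± 0.15, a call lost in 8 alternatives. Without adipose pool 3 or 4, or thymus pool 3 or 4, 2 genes of this list were called.

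Psmb8, an immunoproteasome subunit gene, had 20262, 20374, 17833 and 17540 in thymus and 5723, 8730, 7609 and 9223 in adipose tissue. It fell by 1.30 ± 0.23 (limma adjusted p = 0.00217) and was the 1 call among 41 tested proteasome genes. Over all tested genes, 2.84% were called in either direction. Tnfaip3, which encodes the NF-kB inhibitor A20, had 833 to 2511 in thymus and 6278 to 7200 in adipose tissue and rose by 2.06 ± 0.32 (limma adjusted p = 0.000617), the 1 call among 22 NF-kB genes. Trp53inp1, a p53 target gene, fell by 1.65 ± 0.33 (limma adjusted p = 0.0057). Ctla4, the gene of an inhibitory receptor, had 109 in thymus pool 2, no read in the other thymus pools and 855 to 2557 in adipose tissue, but edgeR did not call it (adjusted p = 0.129). Rora, which encodes a nuclear receptor of innate lymphocytes, had no thymus read and was called higher (limma adjusted p = 0.0171). Its adipose mean was 255-fold that of 3 reads per thymus pool. The Rora call was lost without adipose pool 1 (limma adjusted p = 0.0605) and without adipose pool 4 (0.0724).

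Limma called no member of several groups between adipose and thymic DP cells, so their members are given at an unadjusted limma p under 0.05 too. Of all 9106 tested genes, 1167 passed that threshold, edgeR called 212 and DESeq2 called 539. Of 48 tested S phase genes (median log2 change 0.40), 9 passed the unadjusted threshold, edgeR called 0 and DESeq2 called 3. Of 39 splicing genes (0.08), 9 passed it, edgeR called 1 and DESeq2 called 2. Of 20 type I interferon genes (-0.57), 1 passed it, edgeR called 0 and DESeq2 called 1. Of 81 ribosomal protein genes (0.05), 3 passed it, edgeR called 0 and DESeq2 called 1. For 52 genes of G2 and M phase (0.02), 76 mitochondrial ribosomal protein genes (-0.16) and 78 respiratory chain genes (-0.19), 4, 3 and 3 passed it, and neither edgeR nor DESeq2 called any. Missing the threshold does not show that these levels were equal.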
